A study of Mus musculus with 3 samples.

Results

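Expression of 40 cell cycle genes was measured in single cells of B16-F10 tumors. Of these genes, 20 act in S phase, when DNA is copied, and 20 in mitosis, when the copies are divided. They were taken by gene symbol from a fixed list, and all 40 were found once among the 32285 genes of the files. B16-F10 is a melanoma line that grows in C57BL/6 mice, here in the skin of C57BL/6J mice aged 6 to 8 weeks. A single library, labelled shCtrl, held tumors with a control short hairpin RNA (shRNA). The other 2, labelled shMib2, held tumors with shRNAs against Mib2, which encodes an E3 ubiquitin ligase, and the hairpin of replicate 1 is not that of replicate 2. Tumors of 3 mice were pooled for each library, so mice cannot be told apart, and the control has no replicate. Series of values name shCtrl first, then replicates 1 and 2 of shMib2.

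In a dividing cell, genes of S phase are switched on under E2F transcription factors, as the MCM helicase is loaded at replication origins and nucleotides are made. Genes of mitosis follow in G2, when Cdk1 and its cyclins, the Polo and Aurora kinases and the proteins of the spindle build up. Their promoters often hold a CHR element, which DREAM complexes bind in resting cells and complexes of B-MYB and FOXM1 in dividing ones. RNA of both groups is widely used as a sign of proliferation in tumors.

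Promoters of 300 bases, from 250 before to 50 after the start, were taken from RefSeq (GRCm38.p6) and matched to 34 of the 40 genes, 17 of each group. A total of 4 E2F words (TTTGGCGC, TTTCGCGC, TTTCCCGC and TTTGCCGC, on both strands, overlapping matches included) were searched. They were found in 9 of 17 S phase genes, namely Mcm3, Mcm5, Mcm6, Mcm7, Cdc6, Cdt1, Uhrf1, Hells and Pclaf, and in 1 of 17 mitosis genes, Cdk1, against 2.6% of all 27025 genes with a promoter. A gene counted if any of its promoters held a word. The CHR word TTTGAA, on both strands, was found in 12 of 17 mitosis genes (Mki67, Top2a, Ccnb2, Cdk1, Cdc20, Plk1, Aurka, Bub1b, Ube2c, Cenpa, Cenpf and Kif11) and in 1 of 17 S phase genes, Mcm2, against 20.2% of all genes. CCAAT, the word of NF-Y, was found on either strand in 11 S phase and 15 mitosis genes, against 41.1% of all genes. A match describes letters and is not a measured site. The stretches below are those of 4 S phase genes with an E2F word, of 3 mitosis genes with a CHR and of the 1 gene with both. E2F and CHR words are in capitals, and each is read 5′ to 3′ on the strand of its gene.
Cdc6: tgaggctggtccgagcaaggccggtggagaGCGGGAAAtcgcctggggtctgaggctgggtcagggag
Cdt1: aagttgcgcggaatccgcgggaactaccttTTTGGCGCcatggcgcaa
Uhrf1: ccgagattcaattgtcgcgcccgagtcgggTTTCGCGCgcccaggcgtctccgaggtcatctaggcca
Mcm6: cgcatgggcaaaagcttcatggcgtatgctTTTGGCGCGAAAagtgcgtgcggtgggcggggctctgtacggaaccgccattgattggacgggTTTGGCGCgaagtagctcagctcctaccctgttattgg
Cdc20: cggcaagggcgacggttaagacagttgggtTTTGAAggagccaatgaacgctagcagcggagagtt
Ube2c: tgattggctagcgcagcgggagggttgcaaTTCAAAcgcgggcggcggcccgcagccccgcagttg
Cenpa: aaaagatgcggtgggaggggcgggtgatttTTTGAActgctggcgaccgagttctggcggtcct
Cdk1: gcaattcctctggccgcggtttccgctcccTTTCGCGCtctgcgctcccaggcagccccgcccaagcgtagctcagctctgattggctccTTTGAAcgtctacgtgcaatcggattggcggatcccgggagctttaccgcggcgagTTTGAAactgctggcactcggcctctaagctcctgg
In this order they lie at chr11:98907983-98908050, chr8:122568017-122568064 and chr17:56304098-56304165 on the plus strand, chr1:128359715-128359845 and chr4:118437326-118437391 on the minus strand, chr2:164769870-164769935 and chr5:30666872-30666935 on the plus strand, and chr10:69352892-69353073 on the minus strand. Counted from the start, the E2F word of Cdk1 began at base -131 and its CHR words at bases -71 and -15. The CHR of Cdc20 began at base -18 and that of Cenpa at base 17.

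The files held 9558, 9428 and 8388 cell barcodes with 243926188, 190904274 and 203298455 unique molecular identifiers (UMIs). A barcode was taken as a melanoma cell if it had at least 5000 UMIs and at least 0.5% of them came from Dct and Pmel, genes of melanin synthesis. That left 8100, 6554 and 3933 cells with medians of 27097, 25479 and 44530 UMIs. T cells (80, 563 and 834) and NK cells (46, 329 and 501) were named from clusters of the other barcodes, made without cell cycle genes, and had medians of 1502.5, 1482 and 2651 and of 1478.5, 1296 and 2229 UMIs. Cd3d lay at 1069 to 1151 counts per 1000000 UMIs (CPM) in T cells. In NK cells, Ncr1 lay at 312 to 489 CPM and Cd3e at 0 to 5.23 CPM. Pairs of libraries shared 20 to 30 barcodes. Mib2 gave 2.49, 3.12 and 2.67 CPM in melanoma cells and so was not lower under the shMib2 label, and directions below are between labels only.

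In melanoma cells, the sum of the S phase genes was 2257, 2241 and 2181 CPM, a ratio of shMib2 to shCtrl of 0.980 ± 0.0189 (SD, n = 2). Here and below, the SD is over the 2 ratios to the same shCtrl library, and so leaves out the error of shCtrl. Each UMI counts 1 molecule, so no correction for gene length was needed. Pclaf, which encodes a partner of the replication clamp, lay highest with 315, 297 and 289 CPM. Cdc6, an origin licensing factor, lay lowest with 17.4, 17.9 and 17.1 CPM.

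The subunits of the MCM helicase, which unwinds DNA at the fork, ran from Mcm2 with 124, 135 and 127 CPM down to Mcm4 with 50.8, 52.7 and 49.3 CPM. Their log2 differences between labels, fitted after TMM scaling of the libraries (factors 0.977, 1.03 and 0.995), lay between -0.11 (Mcm3) and 0.03 (Mcm2). This scaling, used for all log2 differences fitted in melanoma cells, sets them lower than the CPM would. In CPM, all MCM genes but Mcm3 lay above shCtrl in 1 shMib2 library at least. Cdt1, which loads the helicase, gave 38.7, 38.8 and 38.3 CPM. Gins2, a subunit of the active helicase, gave 30.5, 26.1 and 26.6 CPM, with both shMib2 libraries below shCtrl.

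Among genes that supply nucleotides, Rrm1, the large subunit of ribonucleotide reductase, lay at 129.8, 139 and 132 CPM, with shCtrl lowest. Rrm2, the small subunit, lay at 188, 199 and 182 CPM, with shCtrl between the others. Tyms, thymidylate synthase (chr5:30058202-30073617), lay at 125, 108 and 107 CPM, a log2 difference of -0.26 (SE 0.04), with both shMib2 libraries below shCtrl. Dut, which removes dUTP, gave 287, 259 and 271 CPM, again with shCtrl highest. Pcna, the replication clamp, gave 219, 226 and 212 CPM, and Slbp, which binds the stem-loop of histone mRNA, gave 78.1, 77.05 and 76.0 CPM. Hells, a chromatin remodeler, differed most between the shMib2 libraries, at 75.1, 73.5 and 85.5 CPM. Uhrf1, which reads methylated DNA, gave 91.7, 98.2 and 92.6 CPM, Ung, which removes uracil from DNA, gave 18.2, 19.2 and 18.6 CPM, and Tipin, of the fork protection complex, gave 129.6, 127 and 124 CPM. Both shMib2 libraries lay below shCtrl in 7 of the 20 genes, above it in 5, and on either side of it in 8.

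The mitosis genes summed to 2508, 2390.0 and 2285 CPM in melanoma cells, a ratio of shMib2 to shCtrl of 0.932 ± 0.0295 (SD, n = 2). In CPM both shMib2 libraries lay below shCtrl for 14 of 20 genes and above it for 1, Kif11, a spindle motor, with 35.5, 37.6 and 35.7 CPM. After TMM scaling, with a median of 0.0067 over all genes, the fitted log2 difference was below 0 for 20 of 20, from -0.32 to -0.0033, as it was for 7826 of all 16196 genes tested. The median was -0.13 for mitosis genes and -0.04 for S phase genes.

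Cdk1, the kinase that drives entry into mitosis (chr10:69335146-69352938), had the widest log2 difference of the 40 genes, -0.32 (SE 0.04), with 229, 194 and 186 CPM. Its cyclin partners lay closer together between libraries, with 76.9, 78.3 and 74.7 CPM for Ccna2, 81.9, 81.5 and 80.8 CPM for Ccnb1 and 111, 102 and 101 CPM for Ccnb2. Aurkb, the kinase of the chromosomal passenger complex, gave 77.2, 70.5 and 69.4 CPM, and Birc5 (survivin), of the same complex, gave 328, 306 and 290.4 CPM. Both shMib2 libraries lay below shCtrl for Cdk1, Aurkb and Birc5. Plk1 and Aurka, kinases of the spindle poles, gave 43.9, 45.4 and 42.0 CPM and 43.4, 42.3 and 40.9 CPM.

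Ube2c and Cdc20 both serve the anaphase-promoting complex, which ends mitosis. Ube2c gave 326, 297 and 284 CPM, and Cdc20 gave 54.9, 51.7 and 51.3 CPM, with shCtrl highest for both. Bub1 and Bub1b, of the spindle checkpoint, gave 51.8, 50.3 and 48.2 CPM and 38.1, 38.3 and 35.5 CPM. Of the centromere genes, Cenpa gave 159, 155 and 145 CPM, Cenpe gave 72.8, 67.8 and 68.9 CPM and Cenpf gave 170.0, 161 and 155 CPM. For Mki67, the gene of the Ki-67 antigen, with 159, 163 and 154 CPM, and Top2a, which untangles DNA, with 284, 285 and 262 CPM, shCtrl lay between the shMib2 libraries. Tpx2 and Nusap1, of the spindle, gave 110.0, 108 and 107 CPM and 57.1, 55.5 and 52.3 CPM.

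**Figure D1:**
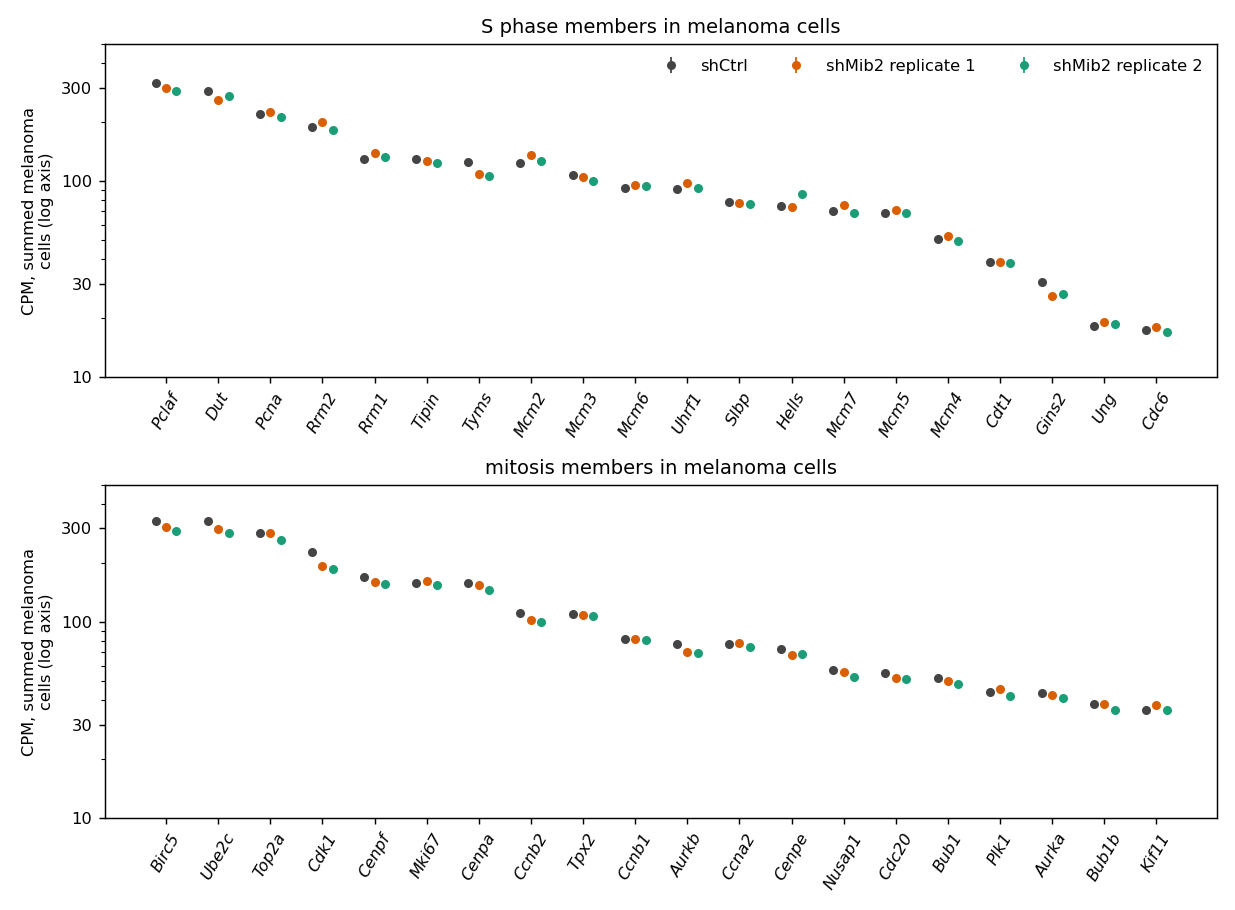
Level of each gene in summed melanoma cells, in CPM on a log axis, by library. Points are libraries and bars are exact Poisson 95% intervals for counting error only. Cdk1 lies at 229, 194 and 186 CPM, and for most genes the libraries lie side by side.

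None of the 40 genes passed an adjusted p of 0.05 between labels in melanoma cells (edgeR quasi-likelihood test on summed UMIs), where 1.61% of all genes tested did, 259 higher and 1 lower. The lowest adjusted p were 0.0697 for Cdk1, 0.0817 for Tyms and 0.118 for Aurkb. At an unadjusted p under 0.05 there were 16 genes, 4 of S phase and 12 of mitosis, where 18.6% of all genes had one. DESeq2 called 4 of the 40 lower, Cdk1 (adjusted p = 1.66e-06), Tyms (0.000838), Ube2c (0.00293) and Birc5 (0.0214), and 4.14% of all genes. The edgeR fit has 1 residual degree of freedom and takes the lone shCtrl library to vary as the shMib2 libraries do. In sums, fewer cells in a phase and less of its RNA per cell cannot be told apart.

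Further genes of the cycle were taken from lists by role, and 1 was called in melanoma cells. That was Hist1h1b, a linker histone, at 0.00844, 0.245 and 0.222 CPM (adjusted p = 0.0476), a level near 0 in each library. Of 45 other S phase genes 36 had a log2 difference below 0 (median -0.10), as had 56 of 61 other mitosis genes (median -0.10). Tk1, thymidine kinase, lay at 97.0, 84.5 and 78.8 CPM (adjusted p = 0.0697), and Rfc4, of the clamp loader, at 78.8, 73.8 and 71.8 CPM (0.136). Cdca8, the passenger subunit borealin, lay at 115, 103 and 101 CPM (0.103), and Cdkn2d, an inhibitor of Cdk4 and Cdk6, at 81.8, 72.1 and 68.1 CPM (0.0635). None of the lists other than the replication-dependent histones gave a call. Medians were -0.04 for 14 cyclins and kinases of G1, -0.04 for 17 CDK inhibitors and arrest genes and -0.0063 for 22 transcription factors.

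Each melanoma cell was then thinned to 5000 UMIs, so that cells of unequal depth could be set side by side. A cell held a mean of 10.3, 10.3 and 9.94 UMIs of S phase genes and of 10.8, 10.3 and 9.67 UMIs of mitosis genes. The mitosis sum was the more uneven between cells, with a variance of 13.4 to 13.7 times its mean, against 7.64 to 8.19 times for the S phase sum. No UMI of a mitosis gene was seen in 15.0%, 15.6% and 18.9% of cells, no UMI of an S phase gene in 4.31%, 4.87% and 5.85%, and none of either in 1.94%, 2.26% and 3.38%.

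Cells with at least 16 UMIs, the 75th percentile of either sum over equally weighted libraries, are called high. S phase was high in 25.7% of cells in shCtrl (Wilson 95% interval 24.8 to 26.7), 26.0% in replicate 1 (24.97 to 27.1) and 25.02% in replicate 2 (23.7 to 26.4). Mitosis was high in 27.1% (26.2 to 28.1), 25.4% (24.3 to 26.4) and 24.1% (22.8 to 25.4). The ratio of shMib2 to shCtrl was 0.991 ± 0.0273 (SD, n = 2) for S phase and 0.912 ± 0.0338 (SD, n = 2) for mitosis, or 0.983 and 0.921 without thinning. The intervals cover counting of cells only, and with 1 control library no test over libraries was made. Both sums were high in 8.46%, 7.67% and 6.64% of cells, where independent sums would give 6.98%, 6.60% and 6.02%. Cells within 1 UMI of the limit made up 6.75%, 6.18% and 6.33% for S phase and 5.27%, 5.51% and 4.22% for mitosis.

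**Figure D2:**
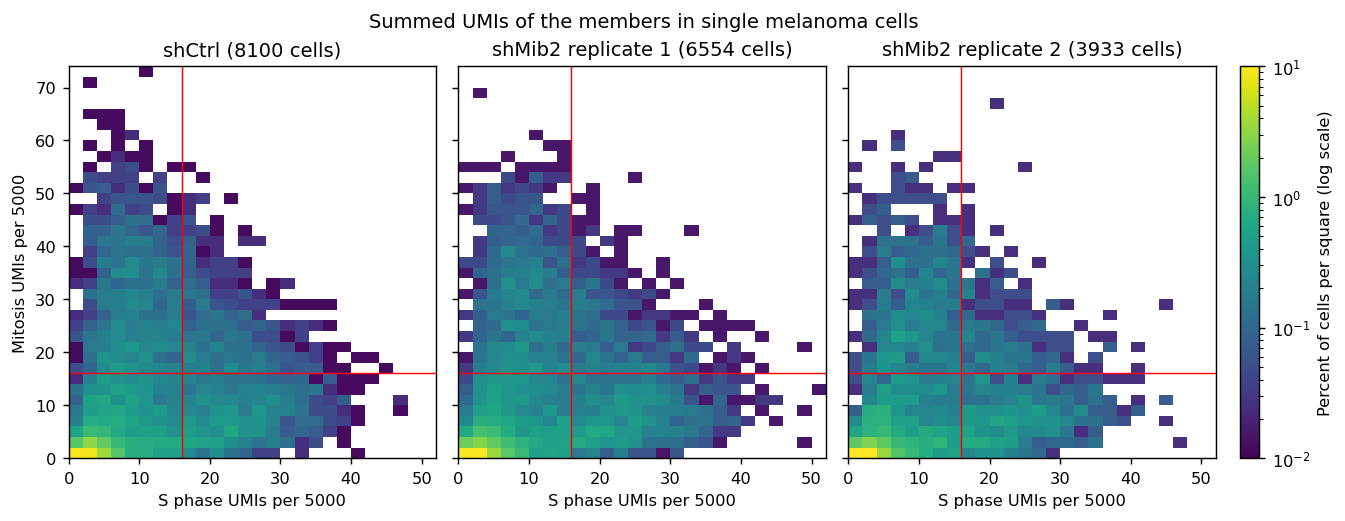
Summed UMIs of S phase genes (horizontal) and of mitosis genes (vertical) per melanoma cell thinned to 5000 UMIs, as 2-dimensional histograms by library, with red lines at 16 UMIs. Cells lie thickest near the origin, and 8.46%, 7.67% and 6.64% lie above both lines.

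Depth before thinning moved with these groups. Cells high in neither sum had medians of 23562, 22363 and 39227 UMIs, those high in S phase alone 30174, 28703.5 and 50824 UMIs and those high in mitosis alone 33765.5, 31184.5 and 56278.5 UMIs. Median shares of mitochondrial UMIs were 4.00% to 4.33% in the first and 3.55% to 3.77% in the others. Predicted doublets made up 6.28% to 10.6% of each group. The part of depth and doublets in the groups was not tested. Over cells, the sums had Spearman correlations of 0.49, 0.51 and 0.52, a description, since cells share a library.

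Each of the 40 genes had a higher Spearman correlation over cells with the sum of its own group, less its own UMIs, than with the other sum, in 3 of 3 libraries. Pairs of mitosis genes had medians of 0.30, 0.29 and 0.29, pairs of S phase genes 0.20, 0.21 and 0.22, and pairs of 1 gene from each group 0.05, 0.06 and 0.06. The 190 pairs within each group lay above 0, and so did 295, 305 and 312 of the 400 pairs between them. By median over libraries, Birc5 with Ube2c was closest (0.54 to 0.57). Pclaf with Top2a was closest between the groups (0.52 to 0.54), and Ung with Cenpf lay lowest (-0.11 to -0.10).

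The mean UMIs of a gene in cells high in mitosis alone were divided by those in cells high in S phase alone, with both groups set without the gene's own UMIs. Cdc6 had ratios of 0.0290 to 0.0768 over the libraries and Ung of 0.0510 to 0.0581, so that both were far lower in cells high in mitosis. Uhrf1 (0.158 to 0.213), Cdt1 (0.163 to 0.188) and Mcm4 (0.165 to 0.221) came next, and the other MCM genes had ratios of 0.222 to 0.379. Pcna had ratios of 0.379 to 0.422. Rrm2 (0.533 to 0.589) and Pclaf (0.552 to 0.565) lay nearer to 1, and Tyms (0.785 to 0.911) and Rrm1 (0.877 to 0.931) nearest, with RNA almost as high in the former cells as in the latter.

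Among mitosis genes, Top2a (1.53 to 1.76), Cdk1 (1.75 to 2.08) and Aurkb (1.75 to 1.86) lay nearest to 1. Ccna2, the cyclin that already acts in S phase, had ratios of 2.22 to 2.36, Mki67 of 2.80 to 2.97 and Ccnb1 of 4.18 to 5.19. Farthest from 1 in each library were Cdc20 (10.7 to 12.1) and then Ube2c (8.88 to 9.36). Next came Cenpa (7.26 to 7.99), Cenpf (7.13 to 7.47), Nusap1 (6.50 to 7.41) and Plk1 (5.22 to 8.36), whose order was not the same in each library. Cdc20 had means of 0.804, 0.813 and 0.784 UMIs in cells high in mitosis alone, 0.0710, 0.0760 and 0.0648 in those high in S phase alone and 0.0950, 0.0911 and 0.0942 in those high in neither. Cdk1 had means of 2.26, 1.95 and 2.02 UMIs in the first, 1.24, 1.11 and 0.967 in the second and 0.314, 0.250 and 0.244 in the last, and so was higher in both kinds of high cells than in the last.

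**Figure D3:**
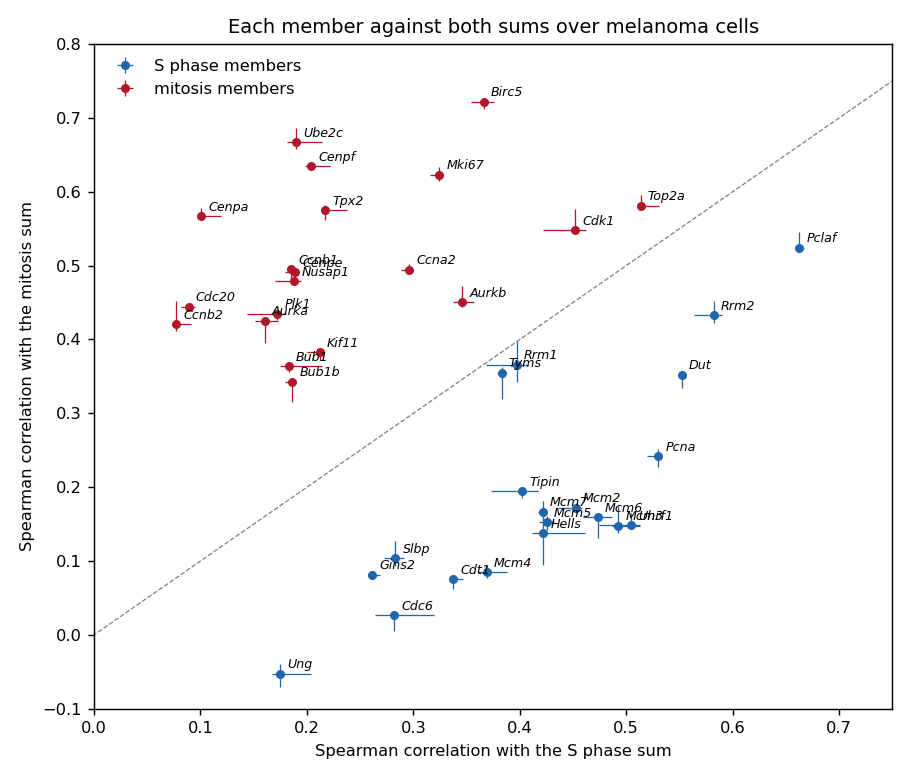
Spearman correlation of each gene over melanoma cells with the S phase sum (horizontal) and with the mitosis sum (vertical), each without the gene's own UMIs. Points are medians over the 3 libraries, bars run from lowest to highest, and the dashed line marks equal values. The S phase genes lie below the line and the mitosis genes above it, and Tyms and Rrm1 lie close to it.

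The promoter words printed above were set beside these ratios, as a description with no test. S phase genes with an E2F word had a median ratio, taken at the middle of the range over libraries, of 0.247, and those matched without one of 0.475. The groups overlapped, since Ung had none of the words searched and Pclaf had one. Mitosis genes with a CHR had a median of 5.01 and those matched without one of 4.69. For CCAAT the medians were 0.375 with and 0.211 without the word in S phase genes, and 4.69 and 4.83 in mitosis genes.

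Of 7214 genes ranked by correlation over cells, those most like the S phase sum were Ptma (0.57 to 0.59 over libraries), H2afz (0.50 to 0.52), Ranbp1 (0.47 to 0.50), Atad2 (0.45 to 0.47), Dek (0.43 to 0.46), and Stmn1, Tubb5, Tuba1b, Siva1 and Hmgb1 (0.38 to 0.48). Those most like the mitosis sum were H2afz, a histone variant (0.67 to 0.69), Ube2s, which extends ubiquitin chains at the anaphase-promoting complex (0.57 to 0.59), Ptma (0.56 to 0.59), Tubb5 (0.52 to 0.54), and Hmgb1, Tuba1b, Stmn1, Calm2, Nucks1 and Arl6ip1 (0.43 to 0.55). Lowest were Aldoa, an enzyme of glycolysis (-0.36 to -0.34 for S phase and -0.34 to -0.30 for mitosis), then Bnip3, Bsg, Pgk1 and Gapdh for S phase (-0.32 to -0.30) and Bsg, Ugp2, Ero1l and Car9 for mitosis (-0.28 to -0.23). The points share libraries and depth.

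In T cells, the sum of the mitosis genes was 770.5 CPM in shCtrl (115 UMIs, exact Poisson 95% interval 636 to 925), 1662 CPM in replicate 1 (1591 to 1735) and 1455 CPM in replicate 2 (1411.5 to 1499), a ratio of 2.02 ± 0.190 (SD, n = 2). The S phase sum was 1528, 1960.3 and 1635 CPM, a ratio of 1.18 ± 0.151 (SD, n = 2). Both SD leave out the counting error of shCtrl. Each of the 20 mitosis genes lay above shCtrl in both shMib2 libraries, while 11 S phase genes lay above in both, 6 below in both and 3 on either side. For 3 mitosis genes, Plk1, Bub1 and Bub1b, shCtrl had no UMI, so that any UMI placed a library above it. With genes at 0 UMIs in a label set to a floor of 3, 19 mitosis genes had a log2 difference above 0. So had 11 of 20 S phase genes and 4065 of all 8602 genes tested. RNA of melanoma cells free in the droplets, estimated by taking all Dct and Pmel UMIs of T cells as such, would give 116, 102 and 56.4 CPM of the mitosis sum, or 15.1%, 6.12% and 3.88% of it. The estimate takes free RNA to hold mitosis genes, Dct and Pmel in the ratio of gated melanoma cells. In barcodes of melanoma clusters with fewer than 5000 UMIs, Dct and Pmel had median shares of only 0.333%, 0.334% and 0.217%. Free RNA like theirs would give more, so the estimate is not an upper bound.

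The shCtrl values rest on few UMIs. In its 80 T cells a mitosis gene had a median of 4 UMIs and at most 21, and 9 of the 20 genes had 3 or fewer. Ube2c (chr2:164769898-164778822) had the most UMIs over the libraries, 10, 252 and 645, or 67.0, 202 and 217 CPM, a log2 difference of 1.56 (SE 0.31). The shMib2 libraries lay close to each other and above shCtrl. Cenpf gave 2, 86 and 215 UMIs, or 13.4, 69.0 and 72.3 CPM, a ratio of 5.32 with a counting interval of 1.46 to 44.2. Tpx2 gave 2, 65 and 164 UMIs, a ratio of 4.05 (1.11 to 33.6), and Ccnb1 gave 1, 52 and 100 UMIs, a ratio of 5.38 (0.951 to 214). Plk1, Bub1 and Bub1b had no UMI in shCtrl. Against a floor of 3 UMIs in that library, Plk1 was at least 1.24-fold higher and Bub1b at least 1.23-fold higher in the mean of shMib2, and for Bub1 the floor lay above that mean.

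Top2a lay at 127, 243 and 168 CPM, Mki67 at 67.0, 168 and 110.3 CPM and Birc5 at 107, 172 and 150.3 CPM, with replicate 1 above replicate 2 and both above shCtrl. Cdk1 lay at 46.9, 88.3 and 69.6 CPM and Cenpa at 141, 173 and 192 CPM. Of the S phase genes, Mcm4 gave 3, 85 and 170 UMIs, or 20.1, 68.2 and 57.2 CPM. Mcm2 lay the other way, at 87.1, 48.1 and 47.1 CPM, with 13 UMIs in shCtrl. Its ratio was 0.544, with a counting interval of 0.311 to 1.04 that includes 1. Pclaf lay at 167, 270.4 and 175 CPM, Dut at 248, 329 and 322 CPM and Pcna at 181, 213 and 172 CPM.

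By edgeR, none of the 40 genes passed an adjusted p of 0.05 in T cells, where 0.198% of 8602 genes did. At an unadjusted p under 0.05 there were 8 genes, 2 of S phase and 6 of mitosis, where 8.43% of all genes had one. Plk1 and Bub1b, among the 6, had no UMI in shCtrl and passed the filter on low counts only through the shMib2 libraries. DESeq2 called 0 of the 40 (2 at an unadjusted p under 0.05) and 4 of all 15123 genes in the fit. The lowest adjusted p was that of Ube2c, 0.131. The standard error of a log2 difference had a median of 0.46 for S phase and 0.60 for mitosis genes, against 0.04 and 0.04 in melanoma cells, so that a p above the threshold does not show equal levels. Ube2c was called by edgeR without a filter on low counts (adjusted p = 0.00206) and with predicted doublets kept (0.0171). Those fits called 116 of 15123 and 55 of 8674 genes. The median log2 difference was 1.26 for mitosis genes (0.70 with the 3 genes without UMIs in shCtrl at their bound), 0.20 for S phase genes and 0.11 for all genes tested (-0.05 at the bounds).

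Of 57 other mitosis genes tested in T cells, 42 had a log2 difference above 0 (median 0.63, or 0.49 at the bounds), and of 42 other S phase genes 27 had (median 0.35, or 0.05), with none called. Over all genes tested 55.8% had one above 0, against 73.7% of these mitosis and 64.3% of these S phase genes. Hmgb2, a chromatin protein, lay at 797, 1247 and 1138 CPM (adjusted p = 0.308) and Cks1b, a partner of Cdk1 and Cdk2, at 53.6, 140.4 and 120.1 CPM (0.393). Cdkn2d lay at 161, 67.4 and 86.4 CPM (0.388) and Btg1, an antiproliferative gene, at 1193, 1048 and 864 CPM (0.465), with shCtrl highest for both.

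**Figure D4:**
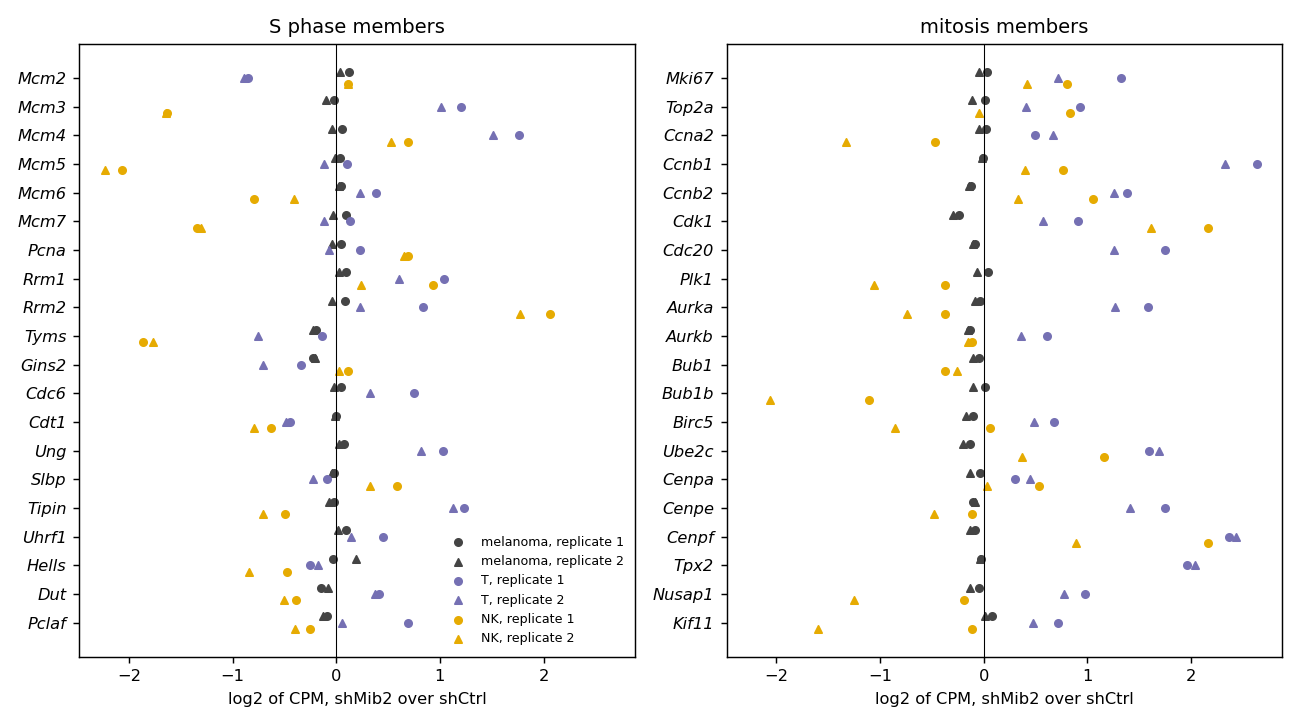
Log2 of the ratio of CPM between each shMib2 library and shCtrl for each gene in melanoma, T and NK cells, without genes at 0 UMIs in shCtrl. Melanoma points lie near 0, T cell points of the mitosis genes shown lie above 0 on this scale, and NK points scatter to both sides.

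T cells were thinned to 1000 UMIs, leaving out 14, 111 and 29 shallower cells, and counted where UMIs of at least 2 mitosis genes were seen. That was so in 5 of 66 cells of shCtrl (7.58%, Wilson 95% interval 3.28 to 16.5), 70 of 452 of replicate 1 (15.5%, 12.4 to 19.1) and 72 of 805 of replicate 2 (8.94%, 7.16 to 11.1), a ratio of 1.61 ± 0.611 (SD, n = 2). The interval of shCtrl overlapped both others. The ratio was 1.18 without replicate 1 and 2.04 without replicate 2. At 500 UMIs per cell it was 5.57, with 1 of 80, 44 of 563 and 51 of 834 cells. Without thinning, the shares were 12.5%, 20.2% and 20.5%. At least 2 S phase genes were seen in 21.2%, 26.99% and 21.0% of cells at 1000 UMIs. In B cells, at medians of 798, 805 and 1392.5 UMIs, at least 2 mitosis genes were seen in 0 of 8, 1 of 12 and 2 of 121 cells. T cells with at least 2 genes of both groups made up 6.06%, 10.2% and 4.84%, where independence would give 1.61%, 4.18% and 1.88%.

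Among the T cell clusters, over the 3 libraries, at least 2 mitosis genes were seen in 80 of 268 cells of the cluster led by Cd8a, Pdcd1 and Lag3, genes of CD8 T cells and inhibitory receptors (29.9%, 24.7 to 35.6), or 2 of 7, 38 of 101 and 40 of 160 by library. In the cluster led by Tnfrsf4, Ctla4 and Foxp3, genes of regulatory T cells, the count was 34 of 135 (25.2%, 18.6 to 33.1), or 2 of 7, 18 of 52 and 14 of 76 by library. It was 12 of 224 (5.36%) in the cluster led by Icos and Cd5, or 0 of 4, 5 of 68 and 7 of 152 by library. It was 4 of 117 (3.42%) in that led by Dapl1 and Lef1, or 0 of 17, 2 of 33 and 2 of 67, and 17 of 579 (2.94%) in that led by Trdc and Ly6c2, or 1 of 31, 7 of 198 and 9 of 350. In each library the share was higher in the Cd8a and Foxp3 clusters than in the other 3, with few cells in shCtrl. Median depths before thinning were, in the same order, 3970.5, 2683, 1417.5, 1487 and 2169 UMIs. The Cd8a cluster made up 8.75%, 18.3% and 19.4% of T cells, the Foxp3 cluster 8.75%, 9.95% and 9.11%, the Icos cluster 7.50%, 22.7% and 20.1%, the Dapl1 and Lef1 cluster 30%, 8.53% and 8.75% and the Trdc cluster 45%, 40.5% and 42.6%. So the Cd8a and Icos clusters took a larger share in both shMib2 libraries and the Dapl1 and Lef1 cluster a smaller one, and the part of these shares in the mitosis sum was not tested. Within the Cd8a cluster the mitosis sum was 1739, 2852 and 2629 CPM, and within the Foxp3 cluster 1585, 2959 and 2650.2 CPM, each with 7 cells in shCtrl.

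In NK cells, the mitosis sum was 686, 1039 and 631 CPM (55 UMIs in shCtrl), so that shCtrl lay between the shMib2 libraries, a ratio of 1.22 ± 0.421 (SD, n = 2). The S phase sum was 1459, 1180.0 and 1074 CPM (117 UMIs in shCtrl), a ratio of 0.772 ± 0.0516 (SD, n = 2), and the interval of shCtrl (1206 to 1748) overlapped that of replicate 1 (1088 to 1277) but not that of replicate 2 (1019 to 1130.5). Both SD leave out the counting error of shCtrl. Both shMib2 libraries lay above shCtrl for 10 and below it for 10 S phase genes, and above it for 9 and below it for 9 mitosis genes. Among those above it were Cdc6, Ung, Uhrf1, Cdc20 and Tpx2, which had no UMI in shCtrl. Free melanoma RNA, estimated as in T cells, would give 11.7% to 17.5% of the mitosis sum.

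Mcm5 (chr8:75109569-75128439) gave 11, 17 and 39 UMIs in NK cells, or 137, 32.7 and 29.1 CPM, a log2 difference of -2.16 (SE 0.59). Mcm3 lay at 137, 44.3 and 44.1 CPM, Mcm7 at 112, 44.3 and 45.6 CPM and Tyms at 112, 30.8 and 32.9 CPM, with shCtrl highest for all of these. In shCtrl these 3 had 11, 9 and 9 UMIs. Pcna lay at 99.7, 162 and 157 CPM and Slbp at 99.7, 150.1 and 125 CPM, with shCtrl lowest, from 8 UMIs for each. Their ratios of shMib2 to shCtrl were 1.59 (counting interval 0.795 to 3.71) and 1.32 (0.660 to 3.10), and both intervals include 1. Of the mitosis genes, Cenpa lay at 125, 181 and 128 CPM, Ube2c at 49.9, 112 and 64.2 CPM and Birc5 at 112, 117 and 62.0 CPM. Their shCtrl values rest on 10, 4 and 9 UMIs. A total of 16 of the 20 mitosis genes had 3 or fewer UMIs in shCtrl. Cdc6, Ung, Uhrf1, Cdc20 and Tpx2 had none there, and a floor of 3 UMIs, 37.4 CPM, lay above their mean in shMib2.

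By edgeR, none of the 34 genes tested was called in NK cells, where 0.14% of 6439 genes were, and Gins2, Cdc6, Ung, Aurka, Bub1 and Cenpe fell below the filter on low counts. At an unadjusted p under 0.05 there were 4, of S phase, where 7.42% of all genes had one. DESeq2 called 0 of the 40 (1 at an unadjusted p under 0.05) and 1 of all 13229 genes in the fit. The lowest adjusted p was that of Mcm5, 0.0986. The standard errors had medians of 0.62 for S phase and 1.12 for mitosis genes. The median log2 difference was -0.45 for S phase genes (-0.52 at the bounds) and 0.35 for mitosis genes (-0.12). Ccnd2, a D cyclin, lay at 112, 293 and 312 CPM (adjusted p = 0.127) and Cdk4, its kinase, at 212, 98.2 and 105 CPM (0.501). At 1000 UMIs, at least 2 mitosis genes were seen in 5 of 38 cells of shCtrl (13.2%, 5.75 to 27.3), 25 of 241 of replicate 1 (10.4%, 7.13 to 14.9) and 17 of 490 of replicate 2 (3.47%, 2.18 to 5.49), a ratio of 0.526 ± 0.371 (SD, n = 2). Without thinning, the shares were 19.6%, 14.6% and 12.6%. The ratio was 0.788 without replicate 2, 0.264 without replicate 1 and 1.67 where cells were chosen by marker UMIs.

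**Figure D5:**
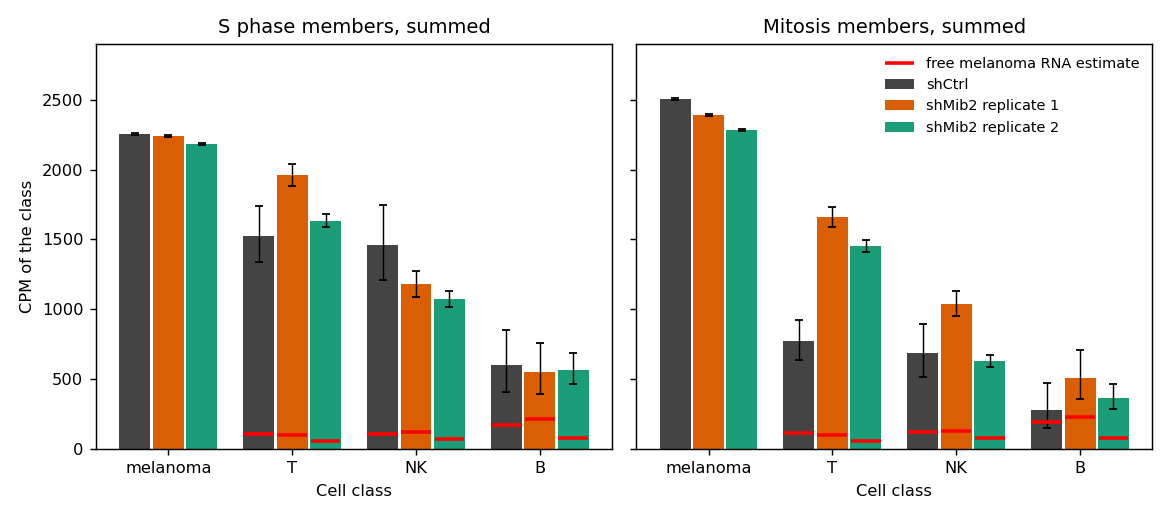
Summed level of S phase genes and of mitosis genes in CPM in melanoma, T, NK and B cells, by library, as bars with exact Poisson 95% intervals for counting error only. Red lines mark the level that free melanoma RNA would give at the ratios of gated melanoma cells. B cells are lowest for mitosis genes, with 279, 509 and 363 CPM of mitosis genes.

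The difference between labels was compared between cell classes in edgeR models with the library as a block. Between T and melanoma cells 2 of the 40 genes passed, where 1.1% of all genes tested did. These were Ube2c, with a log2 difference higher in T cells by 1.88 (adjusted p = 4.46e-05), and Cenpf, higher by 2.57 (0.0403, with 2 UMIs in the T cells of shCtrl). For both genes, both shMib2 libraries lay above shCtrl in T cells and below it in melanoma cells. At an unadjusted p under 0.05 there were 18 of the 40, where 6.61% of all genes had one. Among the 18 were Plk1, Bub1 and Bub1b, which had no UMI in the T cells of shCtrl. Without the library block edgeR called none of the 40 and 0.164% of all genes. There, 16 of the 40 and 6.47% of all genes had an unadjusted p under 0.05. Between NK and melanoma cells none of 40 passed (5 at an unadjusted p under 0.05), where 0.594% of all genes did and 4.26% had an unadjusted p under 0.05, and the lowest adjusted p was that of Mcm5 (0.0605). Between NK and T cells none of 39 passed (4 at an unadjusted p under 0.05), where 0.789% did and 7.27% had an unadjusted p under 0.05, and the lowest was that of Mcm3 (0.0911). Plk1 and Bub1b, without a UMI in the T cells of shCtrl, were among the 4.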

How the data were processed

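Single-cell RNA-Seq (10x Genomics, 5′ gel beads per the labels) of 3 libraries was used. Per the labels, the authors made the files with Cell Ranger 4.0.0 on mm10, and deposited raw UMI counts per gene and barcode, without normalization. The 40 genes and the other lists were chosen with earlier results of these data known. All counts below were computed here with Python 3.11.15, scipy 1.17.1, leidenalg 0.10.2 and R 4.3.3.

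Melanoma cells were gated as described and kept whether or not predicted as doublets. The other barcodes needed 200 genes and at most 20% mitochondrial UMIs, and were clustered (2000 variable genes without the listed cell cycle genes, 30 principal components, Leiden resolution 1). Genes outside the lists that go with both sums, such as H2afz and Tubb5, were not barred, so clusters may still reflect the cycle. Clusters were named from fixed markers, and predicted doublets were removed (622, 587 and 424 over all barcodes, by a simulation of mixed pairs set to remove 0.8% per 1000 barcodes).

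UMIs were summed per library and class. edgeR 4.0.16 (quasi-likelihood, TMM, filterByExpr, Benjamini-Hochberg over all genes) compared labels, and DESeq2 1.42.0 was an alternative. Replicates are shRNAs, and p-values rest only on the spread between these libraries, which edgeR shares over genes. With 1 residual degree of freedom, the median total was 4.21 in melanoma, 10.2 in T and 6439 in NK cells. In NK cells the p-values and standard errors therefore rest on a spread pooled over all genes, not on that of each gene. The edgeR step was tested on simulated data. Wilson and exact Poisson 95% intervals cover counting error only. The SD of a ratio is over the 2 shMib2 libraries and leaves out the error of the lone shCtrl library. Cells were thinned without replacement to 5000 (melanoma) or 1000 UMIs. All 40 genes were described. Of each other list, the passing genes (up to 4) or the 2 of lowest p were named by rule. So were, among genes outside all lists, the 10 highest and 5 lowest by likeness to each sum. Gene positions are those of GENCODE vM21, in which the 40 genes are protein coding and lie on 16 chromosomes.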

Additional observations from a re-analysis of the deposited data

Results flagged for a closer look

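In the edgeR model with a library block, the difference between labels was higher in T than in melanoma cells by 1.88 on the log2 scale for Ube2c and by 2.57 for Cenpf. None of the 40 genes was called without the block, where 0.164% of all genes were. Without a filter on low counts 1 of the 40 was called, where 0.778% of all genes were. Cenpf rests on 2 UMIs in the T cells of shCtrl.

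Barcodes of melanoma clusters that the gate left out, with at least 5000 UMIs and Dct and Pmel under 0.5% of them, were not among the melanoma cells of the report and entered 1 alternative fit alone. In both shMib2 libraries each sum lay above shCtrl. S phase genes gave 1347, 1503 and 1422 CPM and mitosis genes 1563, 2349 and 1884 CPM, in 239, 235 and 267 barcodes. By the limit of 16 UMIs, mitosis was high in 17.6% (13.3 to 22.9), 21.7% (16.9 to 27.4) and 21.7% (17.2 to 27.1) of them (Wilson 95% intervals, which overlap).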

How the results depend on the processing

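In melanoma cells 0 of the 40 genes were called, 4 with DESeq2 and 1 (Aurkb) with cells thinned to 5000 UMIs. Of all genes these fits called 260 of 16196, 670 of 16177 and 167 of 13540. With predicted doublets removed 17 of 15725 genes were called, and without a filter on low counts 0 of 22204. In T cells 0 were called, 1 without a filter on low counts and 1 with doublets kept (Ube2c in both). Of all genes these fits called 17 of 8602, 116 of 15123 and 55 of 8674. Between T and melanoma cells 2 were called, 0 without the library block and 1 without a filter. Of all genes 1.1%, 0.164% and 0.778% were. The ratio of shares of high melanoma cells was 0.960 for S phase with the limit at the median and 0.872 for mitosis at the 90th percentile. The correlation of both sums, with a mean of 0.507 over libraries, was 0.527 as Pearson's r of logged sums, 0.553 with cells thinned to 10000 UMIs and 0.582 without thinning. The ratio for T cells was 5.57 at 500 UMIs, and that for NK cells 1.06 with at least 3 genes and 1.67 with cells chosen by marker UMIs. Leaving out a shMib2 library gave 0.972 to 1.01 for S phase and 0.888 to 0.935 for mitosis in melanoma cells, 1.18 to 2.04 in T cells and 0.264 to 0.788 in NK cells. The cause of these changes was not tested. Without either shMib2 library no residual degree of freedom is left, so calls were not counted. Of 82 values with a p, of 12 gene and class pairs under alternatives, 77 kept their direction and side of the threshold, 5 were newly called and 0 reversed. Those pairs were the 2 genes of lowest p in each group and class, and for each both shMib2 libraries lay on 1 side of shCtrl. For 1 of them, Tpx2 in NK cells, shCtrl had no UMI. Many alternatives refit the same or nearly the same counts, so the choice of these pairs made a reversal among the 82 values unlikely in advance. The 24 values without 1 shMib2 library have no p, and 24 kept their direction, which this choice nearly fixed in advance. Medians of the log2 difference ran from -0.14 to -0.11 for mitosis genes and -0.06 to -0.02 for S phase genes in melanoma cells, 1.05 to 1.35 and -0.10 to 0.33 in T cells, and -0.44 to 0.59 and -0.45 to -0.01 in NK cells. With barcodes of melanoma clusters outside the gate, an alternative chosen after seeing the data, 0 of the 40 genes were called. Of all genes that fit called 2 of 16353, against 260 of 16196 in the main fit, so that 0 of the 40 says little. No paired analysis was possible because there is 1 shCtrl library and the groups share fewer than 2 replicate numbers. The UMIs of 80 T and 46 NK cells in shCtrl limit what these classes can show.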

Other observations

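Both sums were also measured in cells outside these comparisons. In fibroblasts (22, 298 and 279 cells), S phase genes gave 535, 1087 and 930.3 CPM and mitosis genes 1016, 1253 and 911 CPM. At least 2 mitosis genes were seen, at 1000 UMIs, in 4 of 19, 53 of 291 and 31 of 258 fibroblasts (21.1%, 18.2% and 12.02%).

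Mononuclear phagocytes (10, 116 and 236 cells) gave 615, 455 and 329 CPM of S phase genes and 94.6, 369 and 266 CPM of mitosis genes, the latter from 2 UMIs in shCtrl. Free melanoma RNA, estimated as in T cells, would give 86.8%, 29.3% and 25.2% of their mitosis sum. Barcodes of melanoma clusters with fewer than 5000 UMIs (234, 264 and 901) gave 2536, 2340.2 and 2373 CPM of S phase genes and 2419, 2392 and 2383 CPM of mitosis genes.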
